A study of Mus musculus with 12 samples.

Results

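Amino acid transporters of 7 solute carrier families (Slc1a, Slc3a, Slc6a, Slc7a, Slc36a, Slc38a and Slc43a) were followed in RNA-seq libraries of mouse renal cortex, the outer layer of the kidney that holds the glomeruli and most of the proximal tubules. The members were all gene symbols of the count table that begin with a name of these families, without the pseudogene copies whose symbols end in -ps, which gave 66 of 46095 symbols. Of these, 4 are genes transcribed opposite a transporter (symbols ending in os), so 62 were transporters of the 7 families. The 12 libraries, 4 per group, came from C57BL/6 mice aged 12 weeks: normal controls (NC), mice with diabetic nephropathy (DN), and mice with diabetic nephropathy treated with sodium butyrate (DN+NaB), the salt of a short-chain fatty acid. The labels name no allele or transgene, and they give neither the means by which the disease was brought about nor the dose, route or length of the butyrate treatment. No library is tied to an animal by the labels, so p-values here measure only how far these samples spread, and that spread may be technical. The extraction protocol names prefrontal cortex where the tissue label names kidney. Of 8 neuron and glia markers, Snap25 and Mog had 0 counts in every library, Slc17a7, Syt1, Rbfox3, Gad1 and Gfap had at most 41, and the myelin gene Mbp had 942 to 1501 (15.6 to 24.2 CPM), whereas the summed level of 10 markers of the early proximal tubule (segments S1 and S2) was 22946 to 27707 CPM over the NC libraries, 20998 to 32556 over those of DN and 27731 to 36470.3 over those of DN+NaB.

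Amino acids filtered at the glomerulus are taken back almost entirely by the proximal tubule. Carriers of the brush border, such as B0AT1 (Slc6a19) for neutral amino acids and the cystine carrier of Slc3a1 with Slc7a9, bring them into the cell. Carriers of the basolateral side then release them to the blood. Several of these carriers are pairs of proteins: a heavy chain (Slc3a1, rBAT, at the brush border, or Slc3a2, 4F2hc, on the basolateral side) brings a light chain of the Slc7a family to the membrane. Other members carry glutamine, osmolytes such as taurine and betaine, or creatine, work in lysosomes, or clear neurotransmitters in the brain.

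A library held between 58394975 and 70674015 counts (median 63588713), and the members took 0.652 to 0.727% of them in the NC libraries, 0.683 to 0.815% in those of DN and 0.784 to 0.831% in those of DN+NaB. Levels are given as CPM, the counts of a gene scaled to the size of its library with the TMM factors of edgeR. After a filter on low counts 17530 genes were tested, among them 46 members. Changes are log2 fold changes ± a standard error derived from edgeR's quasi-likelihood test with 4 libraries per group. It is the absolute log2 fold change divided by the square root of the F statistic. Calls required a p under 0.05 after Benjamini-Hochberg adjustment over all genes tested. DN replicate 4 stood apart from the other DN libraries. It lay at -39.7 on the second principal component of the 500 most variable genes, against -10.4 to 23.4 for the other 11 libraries. Red cell genes summed to 247 CPM there, against 6.19 to 10.5 in the other DN libraries, and 6 tubular injury genes to 3467 CPM against 1230.0 to 1637. Among the tested members, 14 were higher in this library than in the other 3 DN libraries and 21 lower (32.7% and 33.4% of all tested genes). Member calls that changed without this library are given with and without it, and so are those list medians that are printed.

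Levels per length were compared between members as CPM per kilobase of merged exons. Slc3a1, the rBAT heavy chain, was the highest of the tested members in every group, at 336 ± 26.8 CPM per kb (SD, n = 4) for NC, 332 ± 18.4 for DN and 309 ± 29.0 for DN+NaB. In NC it was followed by Slc7a13, a light chain of rBAT that carries aspartate, glutamate and cystine in the late proximal tubule, at 145 ± 27.5 CPM per kb. The taurine carrier Slc6a6 came next with 133 ± 2.48 CPM per kb, a difference from Slc7a13 smaller than the spread of the latter. Slc6a18, Slc6a19, Slc3a2, Slc7a7, Slc6a8 and Slc7a8 took the following ranks, at means from 90.4 down to 66.9 CPM per kb. Their neighbours in this order did not differ beyond the larger of their SDs. The order was different in the other groups. Slc7a13 stood 15th in DN with 31.4 ± 14.1 CPM per kb and 16th in DN+NaB with 19.0 ± 2.03, while Slc3a2, the 4F2hc heavy chain, went from 6th for NC to 3rd for DN and 2nd for DN+NaB, where it reached 197 ± 25.5 CPM per kb.

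**Figure D1:**
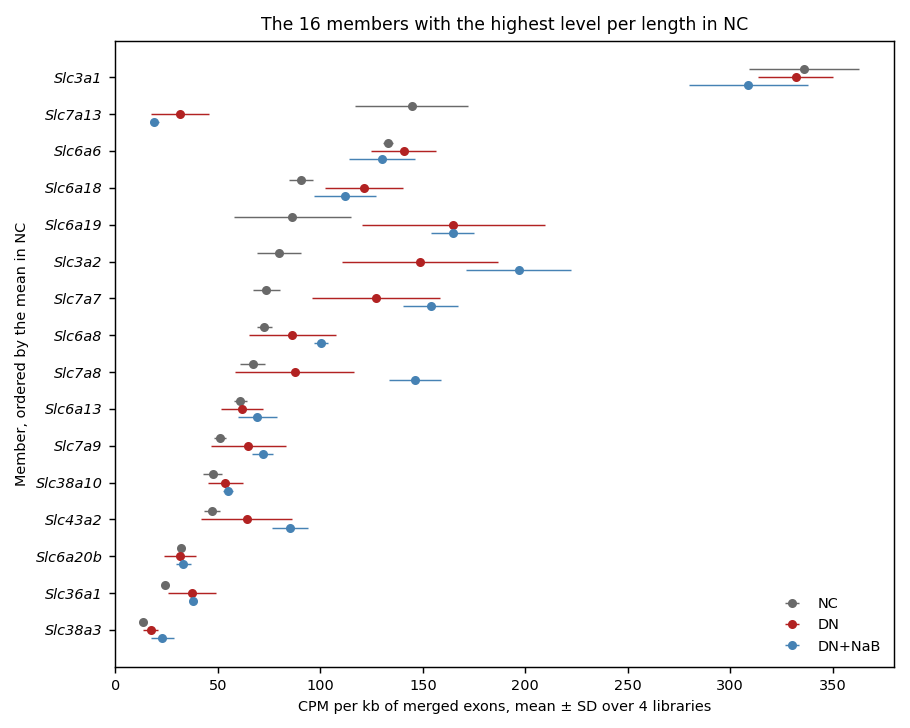
Level of the 16 members highest per length in NC, as CPM per kb of merged exons on the x axis (points are means and bars SDs of 4 libraries; grey NC, red DN, blue DN+NaB). Slc3a1 lies between 309 and 336 in all groups, Slc7a13 lies far to the right only in NC, and Slc3a2, Slc7a7 and Slc7a8 lie furthest to the right in DN+NaB.

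Between DN and NC, 5 of the 46 tested members were called higher and 2 lower. The higher members were Slc3a2, Slc7a7, Slc6a19, Slc36a1 and Slc7a12, and the lower ones Slc7a13 and Slc38a1. This is 10.9% and 4.35% of the members, where 3.82% and 4.42% of all genes tested were called. Between DN+NaB and NC, 12 members were called higher (26.1%, against 6.62% of all genes) and 6 lower (13.0%, against 8.94%). These were the 7 above, in the same directions, with Slc7a8, Slc43a2, Slc38a3, Slc38a7, Slc1a1, Slc6a8 and Slc6a4 higher and Slc6a9, Slc6a15, Slc1a5 and Slc6a20a lower. Both comparisons use the same NC libraries, so their calls are not independent. Between DN+NaB and DN no member was called by edgeR in either direction. Only 0.0114% of all genes were called higher there and 0.0114% lower. At an unadjusted p under 0.05 in that comparison, 3 members were higher (background 3.73%) and 9 lower (6.12%).

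DESeq2, the other count test run, called more members. It called 9 higher in DN against NC (5.88% of all genes) and 3 lower (6.35%), which were the 7 called by edgeR with Slc38a7, Slc6a12, Slc6a18 and Slc6a4 higher and Slc6a15 lower. Between DN+NaB and DN it called Slc7a8 higher (0.479% of all genes) and Slc6a9 and Slc38a1 lower (0.987%). In DN+NaB against NC it called 14 higher (8.73%) and 8 lower (11.6%), the 18 of edgeR with Slc7a9 and Slc38a4 higher and Slc1a2 and Slc36a4 lower. Calls in the rest of the text are those of edgeR unless DESeq2 is named.

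The median log2 fold change over the tested members was 0.14 between DN and NC (0.013 over all genes), -0.02 between DN+NaB and DN (-0.019) and 0.015 between DN+NaB and NC (-0.0093). With DN replicate 4 left out, the first was 0.0892 (-0.023 over all genes) and the second -0.0333 (-0.0028). The number of members called depended on single libraries. In DN against NC, 2 members were called higher without NC replicate 1, 2 or 3, where 409 to 450 of all genes were, and 3 without DN replicate 1 or 2, where 622 and 568 of all genes were. Leaving out DN replicate 4 gave 9 members higher and 3 lower, against 5.16% and 5.92% of all genes (921 and 1055). In DN+NaB against NC, 7 were called higher without DN+NaB replicate 2, where 790 of all genes were. Calls of all genes tested split into 669 higher and 774 lower in DN against NC, and into 503 and 1103 with scaling by library size alone, which moved the median of all genes to -0.083. In DN+NaB against NC the split was 1161 and 1568, and 875 and 2070 with that scaling, at a median of -0.12.

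**Figure D2:**
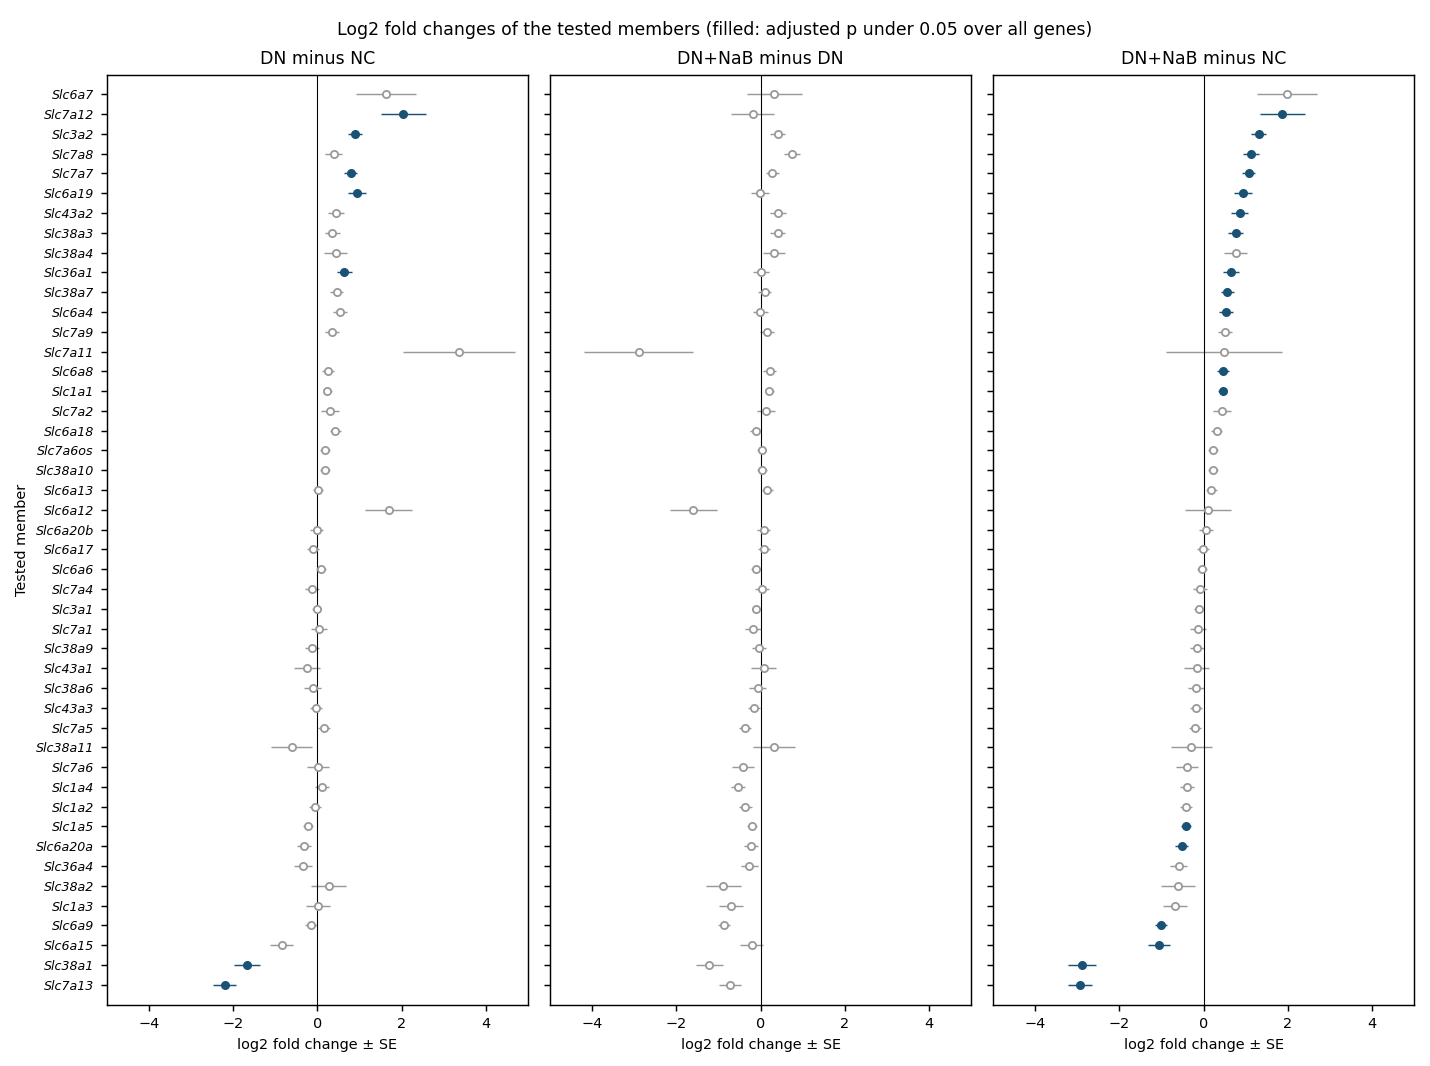
Log2 fold change ± SE of each of the 46 tested members, ordered by DN+NaB against NC, in the 3 comparisons (x axis, log2 fold change; filled points have an adjusted p under 0.05 over all genes). Filled points number 7 in DN against NC, 0 in DN+NaB against DN and 18 in DN+NaB against NC.

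The brush border carriers did not move in one direction. Of the 9 on the list, 8 could be tested. In DN against NC, 1 was called higher (Slc6a19) and 1 lower (Slc7a13), where 3.82% and 4.42% of all genes were. In DN+NaB against NC 2 were higher (Slc6a19 and Slc1a1) and 2 lower (Slc7a13 and Slc6a20a), against 6.62% and 8.94% of all genes. No brush border carrier was called in DN+NaB against DN, and the list's medians were 0.11, -0.053 and 0.18 for DN against NC, DN+NaB against DN and DN+NaB against NC. The summed level of the list was 2249.9 to 2667 CPM over the NC libraries, 2193 to 2987 over those of DN and 2389 to 2809 over those of DN+NaB, with the lowest DN value in replicate 4 and the other 3 DN libraries at 2846 to 2987. Leaving out DN replicate 4 gave 2 higher (Slc6a19 and Slc7a9) and 1 lower (Slc7a13) carrier in DN against NC (5.16% and 5.92% of all genes). The medians then were 0.199 in DN against NC and -0.129 in DN+NaB against DN.

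Slc7a13 fell in DN and in DN+NaB relative to NC. It measured 253, 265, 355 and 365 CPM in the NC libraries, 103, 78.9, 52.8 and 34.4 in those of DN and 38.8, 46.1, 41.9 and 36 in those of DN+NaB. All DN and all DN+NaB libraries lay below all NC libraries, while DN+NaB overlapped DN through replicate 4 of DN. The log2 fold change was -2.20 ± 0.28 (adjusted p = 3.19e-04) in DN against NC and -2.93 ± 0.28 (adjusted p = 3.15e-05) in DN+NaB against NC, and both calls held in every one of the 15 alternative analyses. Against DN, DN+NaB differed by -0.73 ± 0.27 (adjusted p = 0.404), and without DN replicate 4 by -0.95 ± 0.21, adjusted p = 0.140. In a bulk sample, fewer cells of a type and less RNA per cell cannot be told apart. Slc7a13 is known from the S3 segment, the last part of the proximal tubule, and is known to be higher in male than in female mouse kidney. Of 10 S3 markers, 7 were called lower and 1 (Slc5a10) higher in DN against NC, and 8 lower and 1 higher in DN+NaB against NC. Their summed level was 5944 to 7445 CPM over the NC libraries, 3058 to 4745 over those of DN and 2962 to 3878 over those of DN+NaB. Of 7 male-biased kidney genes, 4 were called lower in DN against NC and 5 in DN+NaB against NC, with sums of 6129 to 10557 CPM over the NC libraries, 1270.0 to 2973 over those of DN and 1695 to 2766 over those of DN+NaB. Acsm3 and Cyp7b1 stand in both lists. Of all genes, 4.42% were called lower in DN against NC and 8.94% in DN+NaB against NC. With DN replicate 4 left out, 6 S3 markers and 3 male-biased genes were called lower in DN against NC. The Y-linked Ddx3y of the male-biased list was present in every library (2.79 to 12.3 CPM) and Xist was at most 0.0757 CPM. The part of either marker group in the Slc7a13 result was not tested.

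Slc7a12, a carrier of small neutral amino acids related to Slc7a13 and known to be higher in female mouse kidney, moved the other way. Its values were 6.35, 7.83, 4.99 and 11.6 CPM in the NC libraries, 29.1, 42.4, 7.90 and 47.5 in those of DN and 12.9, 20.3, 40.9 and 37.7 in those of DN+NaB. DN replicate 3 lay within the NC range, so the groups overlapped in DN against NC, whereas all DN+NaB libraries were above NC. The change was 2.05 ± 0.53 (adjusted p = 0.0371) in DN against NC and 1.86 ± 0.53 (adjusted p = 0.0353) in DN+NaB against NC. The first call was lost when NC replicate 1, 2 or 3 or DN replicate 1, 2 or 4 was left out (adjusted p = 0.0578 to 0.109), with the replicate block (adjusted p = 0.0522) and with no filter beyond 1 count (adjusted p = 0.100). The second was lost without NC replicate 1, 2 or 3 or DN+NaB replicate 2, 3 or 4 (adjusted p = 0.0509 to 0.0942) and with no filter beyond 1 count (adjusted p = 0.0917). Without DN replicate 4 the change in DN against NC was 1.78 ± 0.58, adjusted p = 0.0816. Of 4 tested female-biased genes, 2 (Abcc3 and Cyp4a14) were called higher in both comparisons with NC (3.82% and 6.62% of all genes). The sum of the female-biased list was 145 to 292 CPM over the NC libraries, 701 to 1161 over those of DN and 599.6 to 1051 over those of DN+NaB. The part of these genes in the Slc7a12 result was not tested. The sum of Slc7a12 and Slc7a13 was 317 ± 59.8 CPM for NC, 99.1 ± 33.5 for DN and 68.7 ± 13.1 for DN+NaB (SD, n = 4).

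Slc6a19, the main carrier of neutral amino acids at the brush border, rose in DN and in DN+NaB relative to NC. It stood at 321, 378, 388 and 641 CPM in the NC libraries, 746, 1098, 885 and 572 in those of DN and 800.1, 796, 903 and 796 in those of DN+NaB. NC replicate 4 was above DN replicate 4, so DN and NC overlapped, while every DN+NaB library was above every NC library. The change was 0.93 ± 0.22 (adjusted p = 0.0161) in DN against NC and 0.93 ± 0.22 (adjusted p = 0.0101) in DN+NaB against NC, with a difference of -0.0029 ± 0.21 (adjusted p = 0.997) between DN+NaB and DN. The DN call was lost when NC replicate 1, 2 or 3 was left out (adjusted p = 0.0617 to 0.0627). Without DN replicate 4 it was 1.05 ± 0.21, adjusted p = 0.00672. Its relative Slc6a18, which carries glycine and other neutral amino acids in the later proximal tubule, had 388, 403, 433 and 373 CPM in the NC libraries, 656, 477, 479.6 and 528 in those of DN and 534, 512, 538 and 395 in those of DN+NaB. All DN libraries lay above the NC libraries, but the change of 0.42 ± 0.13 (adjusted p = 0.0633) missed the threshold in edgeR and passed it in DESeq2 (adjusted p = 0.0269). No call was made in DN+NaB against NC by either, at 0.31 ± 0.13 (adjusted p = 0.127) in edgeR.

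Slc3a1 was not called in any comparison. It had 815, 683, 748 and 805 CPM in the NC libraries, 786, 756, 779.9 and 694 in those of DN and 741, 686, 763 and 616 in those of DN+NaB, with overlap in every comparison. The differences were -0.017 ± 0.10 (adjusted p = 0.957), -0.10 ± 0.10 (adjusted p = 0.770) and -0.12 ± 0.10 (adjusted p = 0.474) for DN against NC, DN+NaB against DN and DN+NaB against NC. HNF4 and HNF1 are nuclear factors known to drive proximal tubule genes. The 250 bases before each RefSeq start site (GRCm38.p6) were searched on both strands for CAAAGTCCA (HNF4), for the HNF1 motif and for TGATGNAA (the amino acid response element bound by ATF4). A window was present for 48 member genes (69 windows). The HNF4 letters were found in 126 of 32851 windows of all genes (0.384%) and in 1 of 69 member windows, that of Slc3a1. The HNF1 motif was found in 0.0609% of all windows and in 0 member windows. A match is a description of letters, not a site shown to be used. The Slc3a1 window is shown because it belongs to the member with the highest level per length, and the capitals mark the HNF4 letters, from 39 to 31 bases before the start:
Slc3a1, chr17:85028097-85028346, plus strand: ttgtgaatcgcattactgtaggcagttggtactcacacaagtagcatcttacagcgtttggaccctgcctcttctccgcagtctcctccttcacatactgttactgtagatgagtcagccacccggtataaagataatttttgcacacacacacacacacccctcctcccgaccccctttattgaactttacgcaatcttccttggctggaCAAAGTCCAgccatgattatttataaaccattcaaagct

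Slc7a9, the light chain that forms the main cystine carrier with Slc3a1, measured 126, 144, 139 and 135 CPM in the NC libraries, 178, 182, 226 and 108 in those of DN and 175, 204, 186 and 203 in those of DN+NaB. All DN+NaB libraries lay above NC, and DN replicate 4 was the lowest of all libraries. None of the 3 differences passed the threshold in edgeR: 0.35 ± 0.17 (adjusted p = 0.239) in DN against NC, 0.15 ± 0.17 (adjusted p = 0.800) in DN+NaB against DN and 0.50 ± 0.17 (adjusted p = 0.0593) in DN+NaB against NC. Without DN replicate 4 the first was 0.50 ± 0.10, adjusted p = 0.00634, which passes it. The last passed in DESeq2 (adjusted p = 0.0330) and in the fit of only those 2 groups (adjusted p = 0.00192). Slc1a1, the brush border carrier of glutamate and aspartate, had 59.5, 67.7, 69.2 and 62.6 CPM in the NC libraries, 80.2, 76.4, 81.1 and 67.8 in those of DN and 85.8, 97.8, 92.1 and 76.9 in those of DN+NaB. DN+NaB was above NC without overlap and the call of 0.45 ± 0.10 (adjusted p = 0.00943) held in all 15 alternatives, while DN against NC gave 0.24 ± 0.10 (adjusted p = 0.191).

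Slc6a20 is known as a carrier of proline and related imino acids. Mice have 2 similar copies, so reads may have been split between them in the counting, and what each copy carries was not examined. Slc6a20a had 28.4, 21.4, 21.9 and 24.9 CPM in the NC libraries, 23.8, 19.2, 20.3 and 14.7 in those of DN and 18.9, 17.2, 18.1 and 12.8 in those of DN+NaB. Every DN+NaB library lay below every NC library, and the change was -0.53 ± 0.16 (adjusted p = 0.0436), a call that was lost when NC replicate 1, 3 or 4 or DN+NaB replicate 2, 3 or 4 was left out (adjusted p = 0.0563 to 0.129). Slc6a20b was more abundant, with 262, 287, 281 and 260.0 CPM in the NC libraries, 286, 299, 321 and 174 in those of DN and 289, 327, 266 and 253 in those of DN+NaB, and its groups overlapped throughout (DN+NaB against NC 0.057 ± 0.16, adjusted p = 0.845). The sum of both copies was 297 ± 10.8 CPM for NC, 289 ± 68.3 for DN and 300.4 ± 34.0 for DN+NaB (SD, n = 4). Slc36a2, a proton-coupled carrier of glycine and proline, was too low to test, with 5, 5, 16 and 8 counts in the NC libraries, 0, 5, 3 and 1 in those of DN and 3, 4, 1 and 1 in those of DN+NaB.

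The basolateral carriers were called in one direction, higher. In DN against NC 2 of 6 passed (Slc3a2 and Slc7a7), where 3.82% of all genes were called higher. In DN+NaB against NC 5 of 6 passed, all but Slc7a6, where 6.62% of all genes were called higher. None passed in DN+NaB against DN. The medians of the 6 were 0.41, 0.40 and 0.96 in DN against NC, DN+NaB against DN and DN+NaB against NC, beside the medians of all genes given above. Their summed level was 1314 to 1524 CPM over the NC libraries, 1495 to 2773 over those of DN and 2759 to 3073 over those of DN+NaB, so DN+NaB did not overlap NC. The lowest DN value was replicate 4, and the other DN libraries held 2009.6 to 2773 CPM. Without that library, 4 of the 6 were called higher in DN against NC (Slc3a2, Slc7a7, Slc7a8 and Slc43a2), where 5.16% of all genes were, and the median was 0.564 there and 0.271 in DN+NaB against DN. Beside these, 1 of 10 markers of segments S1 and S2 was called higher in DN against NC (Slc2a2) and 3 in DN+NaB against NC (Slc2a2, Slc5a2 and Adra1a). The part of those segments in the basolateral result was not tested.

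Slc3a2, the heavy chain of the basolateral exchangers, measured 245, 306, 321 and 255 CPM in the NC libraries, 399, 585, 685 and 431 in those of DN and 621, 824, 651 and 682 in those of DN+NaB. All DN and DN+NaB libraries were above all NC libraries. The log2 fold change was 0.90 ± 0.17 (adjusted p = 0.00434) in DN against NC and 1.30 ± 0.17 (adjusted p = 2.11e-04) in DN+NaB against NC, and both calls held in all 15 alternatives. DN+NaB overlapped DN, at 0.40 ± 0.17 (adjusted p = 0.461). Slc7a7, the light chain that sends lysine, arginine and ornithine to the blood, and whose loss causes lysinuric protein intolerance, had 212, 264, 253 and 246 CPM in the NC libraries, 389, 420.0, 562 and 315 in those of DN and 453, 546, 494 and 546 in those of DN+NaB. It too was higher in every DN and DN+NaB library than in any NC library. Its change was 0.79 ± 0.15 (adjusted p = 0.00501) in DN against NC and 1.06 ± 0.15 (adjusted p = 4.04e-04) in DN+NaB against NC, with both calls kept in all 15 alternatives, and 0.28 ± 0.15 (adjusted p = 0.588) in DN+NaB against DN.

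Slc7a8, the light chain of the exchanger LAT2 for neutral amino acids, rose in DN+NaB relative to NC. It had 295, 366, 344 and 335 CPM in the NC libraries, 357, 583, 535 and 275 in those of DN and 711, 827, 696 and 692 in those of DN+NaB. Every DN+NaB library was above every DN and every NC library, and DN replicate 4 was the lowest of all 12. The change was 1.13 ± 0.19 (adjusted p = 0.00145) in DN+NaB against NC, 0.74 ± 0.19 (adjusted p = 0.183) in DN+NaB against DN and 0.38 ± 0.19 (adjusted p = 0.262) in DN against NC. Without DN replicate 4, DN+NaB against DN was 0.58 ± 0.15, adjusted p = 0.193, and DN against NC was 0.53 ± 0.14, adjusted p = 0.0320. Slc43a2, a uniporter of large neutral amino acids, had 477, 507, 489 and 419.6 CPM in the NC libraries, 742, 542, 895 and 393 in those of DN and 810.3, 761, 961 and 888 in those of DN+NaB. DN+NaB was above NC without overlap, at 0.85 ± 0.20 (adjusted p = 0.00975). DN replicate 4 was below every NC library, and the DN against NC change of 0.44 ± 0.20 (adjusted p = 0.207) became 0.60 ± 0.14, adjusted p = 0.0176 without it.

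Slc38a3 carries glutamine across the basolateral membrane and is known to rise in acidosis. It measured 78.3, 74.0, 67.3 and 65.2 CPM in the NC libraries, 118, 84.6, 90.5 and 70.4 in those of DN and 156, 109, 129 and 86.6 in those of DN+NaB. All DN+NaB libraries were above all NC libraries, and the change of 0.76 ± 0.18 (adjusted p = 0.0106) was called in all 15 alternatives. The change in DN against NC was 0.35 ± 0.18 (adjusted p = 0.269). Slc7a6, another light chain for basic amino acids, was low, with 7.30, 6.81, 8.22 and 5.40 CPM in the NC libraries, 6.39, 5.23, 5.37 and 11.1 in those of DN and 7.49, 4.65, 4.79 and 4.16 in those of DN+NaB, and its groups overlapped in every comparison (DN+NaB against NC -0.40 ± 0.26, adjusted p = 0.332).

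**Figure D3:**
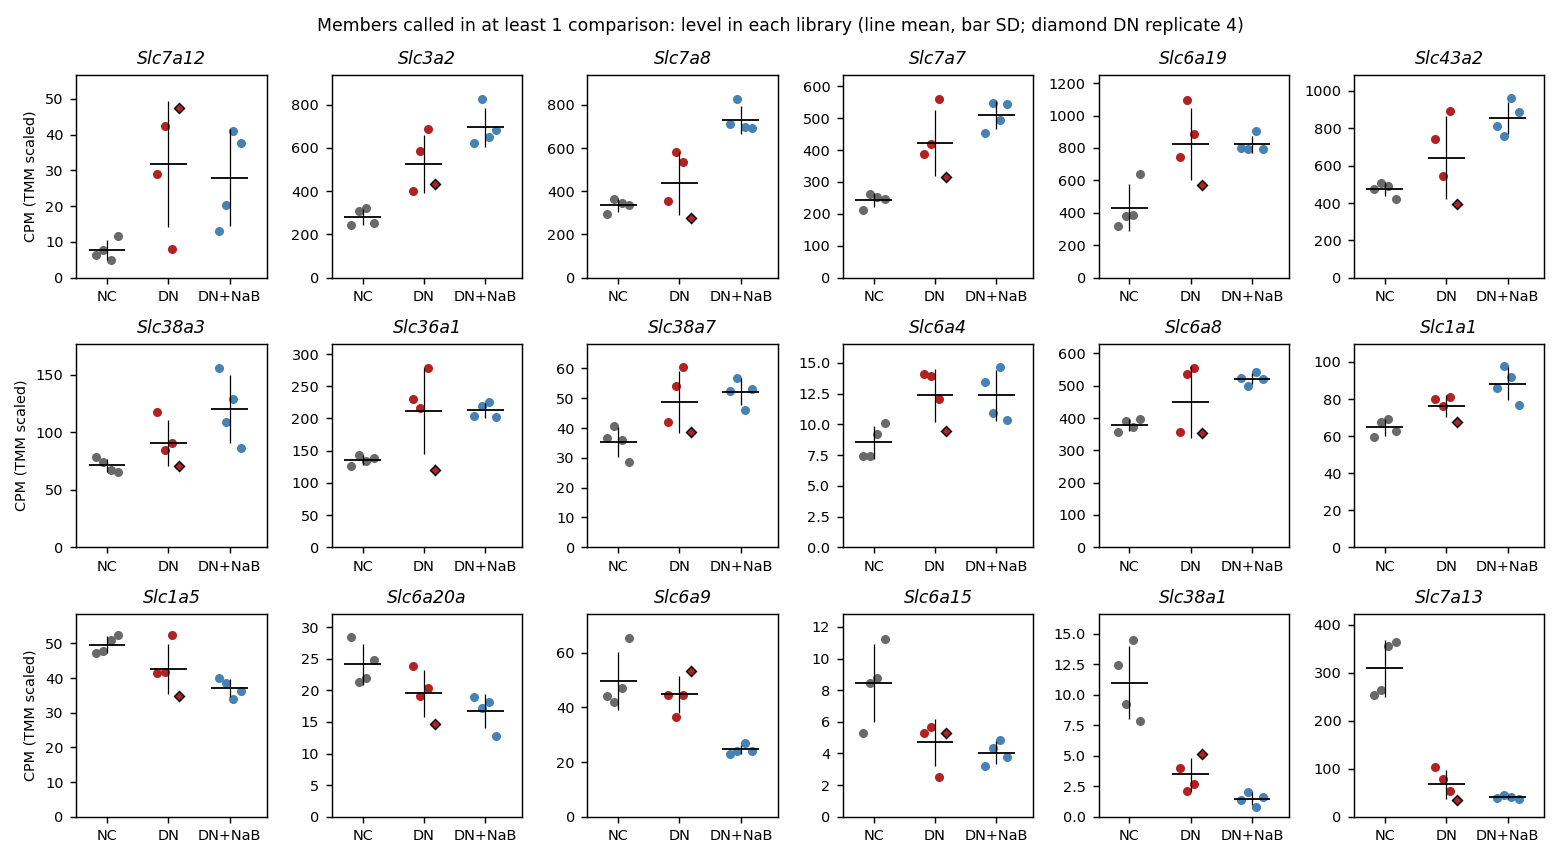
Level of the 18 members called in at least 1 comparison, in CPM on the y axis (each point is a library, lines are means, bars SDs of 4; the diamond is DN replicate 4). The basolateral Slc3a2, Slc7a7, Slc7a8, Slc43a2 and Slc38a3 are higher in all DN+NaB libraries than in all NC libraries, and Slc7a13 and Slc38a1 are lower in all DN and DN+NaB libraries than in all NC libraries.

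Ratios of 2 members within a library do not depend on scaling, and 6 of them were compared between the groups in an exact two-sided permutation test. With 4 against 4 libraries the smallest p it can give is 0.0286. Of the 18 tests 8 reached it, which became 0.0644 after Benjamini-Hochberg adjustment, and none passed the threshold. With 8 of 18 tests at the smallest p, no ratio could pass, whatever the size of its difference. The adjusted result therefore cannot decide on a single ratio. Slc7a13 gave 201, 183, 256 and 270.1 counts per 100 counts of Slc7a9 for NC, 57.9, 43.3, 23.3 and 31.9 for DN and 22.2, 22.6, 22.5 and 17.8 for DN+NaB. These 3 groups did not overlap: the ratio of the light chains of rBAT was lower in DN than in NC, and lower in DN+NaB than in DN (exact permutation p = 0.0286 in each comparison). The mean log2 ratios were 1.17 ± 0.269 for NC, -1.44 ± 0.564 for DN and -2.24 ± 0.169 for DN+NaB (SD, n = 4).

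Slc7a8 stood at 120.5, 119.6, 107 and 132 counts per 100 counts of Slc3a2 for NC, 89.5, 99.5, 78.1 and 63.8 for DN and 114, 100.4, 107 and 102 for DN+NaB. DN lay below both of the other groups without overlap (exact permutation p = 0.0286 in each), and DN+NaB overlapped NC (exact permutation p = 0.0571). The ratio of Slc7a7 to Slc3a2 overlapped in every comparison, as did that of Slc6a18 to Slc6a19. The ratio of Slc7a13 to Slc3a1 was lower in DN and in DN+NaB than in NC, and that of Slc7a9 to Slc3a1 higher in DN+NaB than in NC (exact permutation p = 0.0286 for each of these 3). Counts per 100 compare genes of unlike length, so only their change between groups can be read.

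**Figure D4:**
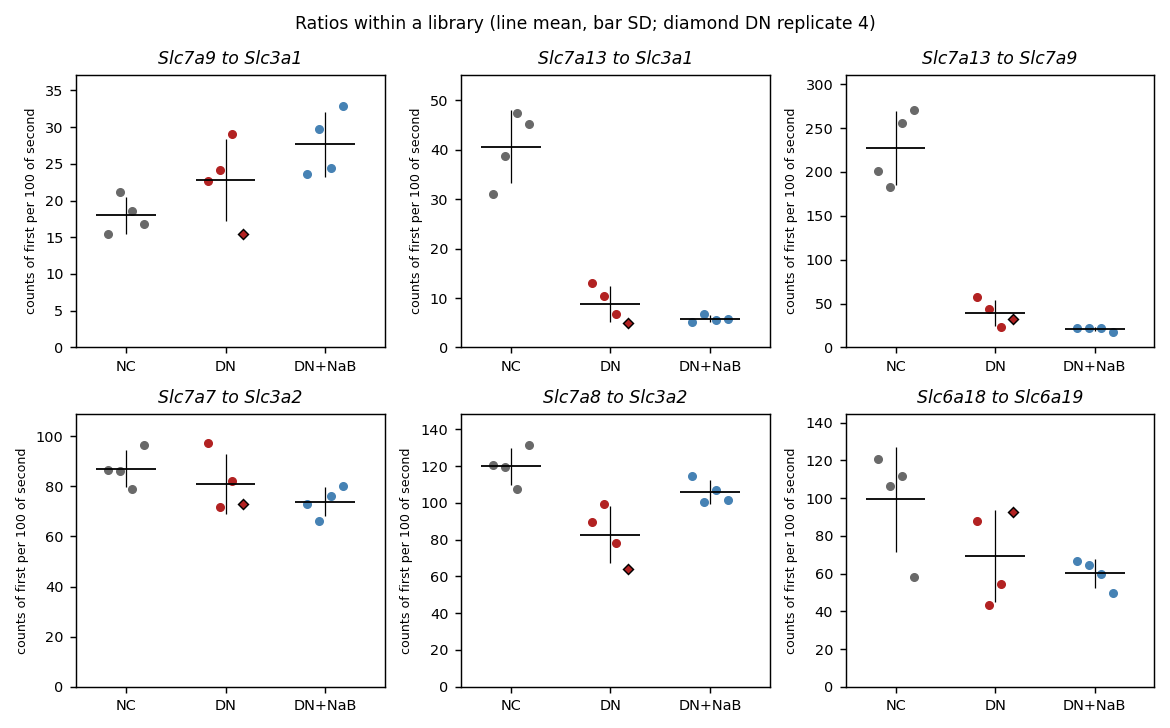
Counts of one member per 100 counts of another in each library (y axis; lines are means, bars SDs of 4, the diamond is DN replicate 4) for 6 pairs. Slc7a13 per 100 Slc7a9 runs from 183 to 270 for NC, 23.3 to 57.9 for DN and 17.8 to 22.6 for DN+NaB, and Slc7a8 per 100 Slc3a2 is lowest in DN.

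Among the carriers of osmolytes and creatine, edgeR called none of 4 in DN against NC or in DN+NaB against DN. In DN+NaB against NC 1, Slc6a8, was called higher, where 6.62% of all genes were. Slc6a8 brings creatine into the cell and had 355, 392, 372 and 396 CPM in the NC libraries, 356, 535, 556 and 353 in those of DN and 525, 499, 542 and 521 in those of DN+NaB. DN+NaB was above NC without overlap, at 0.46 ± 0.14 (adjusted p = 0.0445), and the call was lost whenever any 1 of the 8 libraries was left out (adjusted p = 0.0650 to 0.110) and with scaling by library size alone (adjusted p = 0.0760). Slc6a12, which takes up betaine and GABA, held 4.16, 7.01, 6.97 and 1.05 CPM in the NC libraries, 14.4, 9.54, 9.10 and 29.1 in those of DN and 6.35, 3.63, 7.59 and 2.93 in those of DN+NaB. Every DN library was above every NC and DN+NaB library, with the highest value in DN replicate 4, yet neither change passed in edgeR: 1.69 ± 0.56 (adjusted p = 0.0917) in DN against NC and -1.60 ± 0.56 (adjusted p = 0.374) in DN+NaB against DN. DESeq2 called the first (adjusted p = 0.0411). Without DN replicate 4 they were 1.18 ± 0.54, adjusted p = 0.192, and -1.11 ± 0.54, adjusted p = 0.722. Slc6a13, a carrier of GABA, taurine and betaine, gave 0.18 ± 0.13 (adjusted p = 0.376) in DN+NaB against NC, and the taurine carrier Slc6a6 gave -0.033 ± 0.12 (adjusted p = 0.881).

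Of the carriers of basic amino acids, 3 of 5 were tested and none was called in any comparison. Slc7a2 differed by 0.44 ± 0.22 (adjusted p = 0.189) between DN+NaB and NC, Slc7a1 by -0.14 ± 0.19 (adjusted p = 0.653) and Slc7a4 by -0.08 ± 0.16 (adjusted p = 0.783). Slc7a3 had at most 8 counts in a library, and Slc7a14 had 0 in all.

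The carriers known to respond to amino acid shortage gave a mixed picture. Of 9 tested, 1 was called higher (Slc3a2) and 1 lower (Slc38a1) in DN against NC, against 3.82% and 4.42% of all genes. None was called in DN+NaB against DN. In DN+NaB against NC 1 was higher (Slc3a2) and 3 lower (Slc38a1, Slc6a9 and Slc1a5), against 6.62% and 8.94%. The list's medians were 0.12, -0.53 and -0.41 in these comparisons, in that order. The first changed sign without DN replicate 4: the medians then were -0.155 in DN against NC and -0.279 in DN+NaB against DN, with the same members called.

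Slc38a1, a sodium-coupled glutamine carrier, fell in DN and in DN+NaB relative to NC. It measured 12.4, 9.22, 14.4 and 7.85 CPM in the NC libraries, 3.98, 2.08, 2.68 and 5.12 in those of DN and 1.41, 2.05, 0.839 and 1.65 in those of DN+NaB. All 3 groups were separate, NC highest and DN+NaB lowest. The margin between DN and DN+NaB was narrow: DN replicate 2 had 118 counts (2.077 CPM) and DN+NaB replicate 2 had 124 (2.053 CPM). The change was -1.66 ± 0.31 (adjusted p = 0.00445) in DN against NC and -2.88 ± 0.33 (adjusted p = 7.94e-05) in DN+NaB against NC, with both calls held in all 15 alternatives, and -1.22 ± 0.32 (adjusted p = 0.187) in DN+NaB against DN. Of 8 markers of T and NK cells, 3 were also called lower in DN against NC (4.42% of all genes). In DN+NaB against DN 2 were (Cxcr3 and Cd5, against 0.0114%), and in DN+NaB against NC 8 (8.94%). Their summed level was 16.5 to 25.6 CPM over the NC libraries, 5.39 to 13.6 over those of DN and 2.30 to 3.29 over those of DN+NaB. When DN replicate 4 was left out, 1 of them (Cd4) was called lower in DN against NC. Of 6 macrophage markers, 1 was called lower in DN against NC (3 without DN replicate 4) and 5 in DN+NaB against NC. Their summed level was 912 to 1248 CPM over the NC libraries, 1139 to 4196 over those of DN and 331 to 997 over those of DN+NaB, most of it from the antigen presentation gene Cd74, which gave 1.64 ± 0.50 (adjusted p = 0.0711) in DN against NC. Markers of other kidney cells were called lower too. In DN against NC these were 2 of 6 for the thick ascending limb (3 without DN replicate 4), 2 of 6 endothelial and 2 of 6 intercalated. In DN+NaB against NC the counts were 3, 1 and 0. Collecting duct principal cell markers had no call, and those of podocytes and the distal convoluted tubule were called only higher. The part of any of these cell types in the Slc38a1 result was not tested.

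Slc6a9, the glycine carrier GlyT1, fell in DN+NaB relative to NC. Its values were 44.3, 41.9, 47.0 and 65.4 CPM in the NC libraries, 44.6, 36.6, 44.4 and 53.4 in those of DN and 23.0, 24.2, 27.1 and 24.0 in those of DN+NaB. Every DN+NaB library lay below every NC and DN library, whereas DN overlapped NC. DN+NaB differed from NC by -1.01 ± 0.15 (adjusted p = 5.05e-04), called in all 15 alternatives, and from DN by -0.86 ± 0.15 (adjusted p = 0.0507), the smallest adjusted p of a member in that comparison. The latter was called in 4 of the 15 alternatives. These were DESeq2 (adjusted p = 9.71e-05), RLE factors, no filter beyond 1 count, and leaving out DN replicate 3 (-0.87, adjusted p = 0.0389). Slc1a5, the exchanger ASCT2 for glutamine and other neutral amino acids, had 47.3, 47.7, 51.0 and 52.3 CPM in the NC libraries, 41.5, 41.8, 52.3 and 34.8 in those of DN and 40.1, 38.4, 33.9 and 36.1 in those of DN+NaB. DN+NaB was below NC without overlap, at -0.42 ± 0.12 (adjusted p = 0.0298), a call lost without NC replicate 3 or DN+NaB replicate 2, 3 or 4 (adjusted p = 0.0597 to 0.0911). Slc7a5, the light chain of the exchanger LAT1, was lower in every DN+NaB library than in every DN library (-0.37 ± 0.15, adjusted p = 0.446) and was not called.

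Slc38a2 and Slc7a11 were set apart by DN replicate 4 alone. Slc38a2, the glutamine and alanine carrier SNAT2, had 83.0, 97.8, 91.7 and 81.8 CPM in the NC libraries, 71.1, 72.0, 43.5 and 242 in those of DN and 57.3, 63.5, 52.5 and 58.5 in those of DN+NaB. DN replicate 4 was the highest of all libraries, and the other DN libraries lay below NC. The change in DN against NC was 0.27 ± 0.41 (adjusted p = 0.769) with that library and -0.52 ± 0.16, adjusted p = 0.0538 without it. Slc7a11, the cystine and glutamate exchanger xCT, had 1, 1, 10 and 13 counts for NC, 2, 11, 5 and 221 for DN and 2, 5, 7 and 19 for DN+NaB, so that 1 library held most of them. Its change was 3.37 ± 1.33 (adjusted p = 0.157) with DN replicate 4 and 0.09 ± 0.96, adjusted p = 0.965 without it. Slc7a1, a carrier of arginine and lysine, was also highest there, at 16.1, 19.4, 20.8 and 34.2 CPM in the 4 DN libraries. Tubular injury genes were highest in the same library. Their part in these values was not tested.

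**Figure D5:**
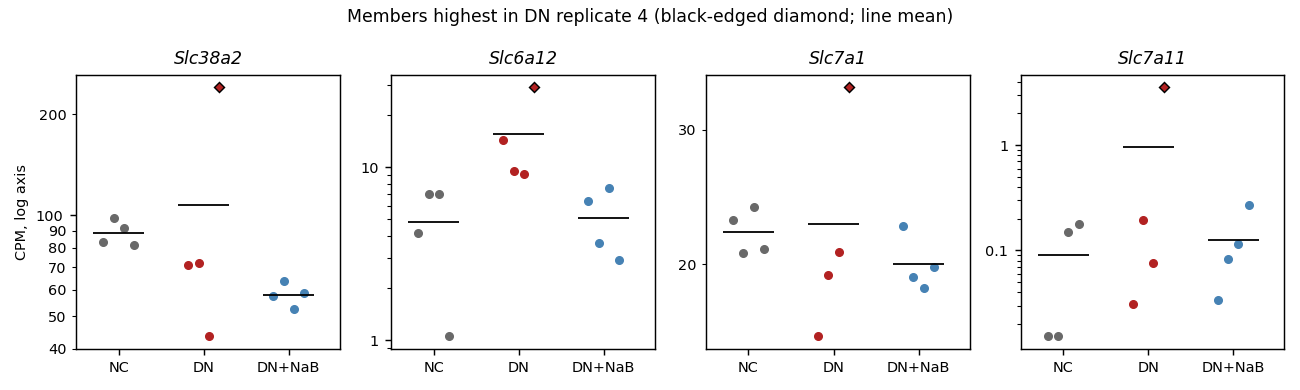
Levels of Slc38a2, Slc6a12, Slc7a1 and Slc7a11 in each library (y axis, CPM on a log scale; lines are means of 4 libraries). The black-edged diamond, DN replicate 4, is the highest point in each panel, at 242, 29.1, 34.2 and 3.57 CPM.

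The letters of the amino acid response element were present in 3 of 69 member windows, which belong to 2 genes, Slc7a11 and Slc7a7. They were present in 1134 of 32851 windows of all genes (3.45%). ATF4, which binds this element, is known to switch on genes when amino acids run short. Both promoters are shown because one belongs to the member that DN replicate 4 set apart and the other to a basolateral member called in both comparisons with NC. The capitals mark the letters. In Slc7a11 they occur on both strands, from 66 to 59 and from 47 to 40 bases before the start, and in Slc7a7 from 141 to 134 bases before it, with a match also in the window of another Slc7a7 start site:
Slc7a11, chr3:50443614-50443863, minus strand: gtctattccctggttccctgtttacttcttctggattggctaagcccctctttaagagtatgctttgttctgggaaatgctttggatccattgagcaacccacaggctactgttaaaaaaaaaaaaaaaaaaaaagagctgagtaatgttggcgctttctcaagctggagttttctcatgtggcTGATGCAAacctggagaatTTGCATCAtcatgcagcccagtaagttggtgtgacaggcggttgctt
Slc7a7, chr14:54417945-54418194, minus strand: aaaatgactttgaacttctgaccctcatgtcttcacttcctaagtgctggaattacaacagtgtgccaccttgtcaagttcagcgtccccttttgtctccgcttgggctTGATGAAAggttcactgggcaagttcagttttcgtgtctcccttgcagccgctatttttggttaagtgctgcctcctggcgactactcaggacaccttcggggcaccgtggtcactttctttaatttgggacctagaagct

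Of 18 other genes known to respond to amino acid shortage, 3 were called higher in DN against NC, where 3.82% of all genes were. None was called in DN+NaB against DN. In DN+NaB against NC 1 (Ddit3) was called higher, where 6.62% of all genes were. The 3 in DN against NC were Ddit3, which encodes the stress factor CHOP, at 0.999 ± 0.22 (adjusted p = 0.0126), the glutathione-degrading enzyme gene Chac1 at 2.21 ± 0.55 (adjusted p = 0.0236), and asparagine synthetase Asns at 1.01 ± 0.29 (adjusted p = 0.0480). Atf4 itself gave -0.034 ± 0.23 (adjusted p = 0.961). No gene of this list was called lower. DN replicate 4 bore on these calls: without it Ddit3 was called in DN against NC, while Asns (0.59 ± 0.22, adjusted p = 0.110) and Chac1 (1.36 ± 0.42, adjusted p = 0.0580) were not.

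Among the lysosomal carriers, 4 of 5 were tested. In DN against NC 1 was called higher (Slc36a1), where 3.82% of all genes were, and none in DN+NaB against DN. In DN+NaB against NC 2 were called higher (Slc36a1 and Slc38a7), where 6.62% of all genes were. Without DN replicate 4, 2 were higher and 1 lower in DN against NC (5.16% and 5.92% of all genes). Slc36a1, which exports small neutral amino acids with protons, had 126, 143, 134 and 139 CPM in the NC libraries, 230.2, 216, 279 and 120.1 in those of DN and 203, 219, 226 and 203 in those of DN+NaB. DN replicate 4 was below all NC libraries, the other 3 DN libraries were above them, and DN+NaB was above NC without overlap. The changes were 0.64 ± 0.18 (adjusted p = 0.0473) in DN against NC and 0.65 ± 0.18 (adjusted p = 0.0282) in DN+NaB against NC. The first call was lost when any 1 library other than DN replicate 4 was left out (adjusted p = 0.0843 to 0.128), and also with the replicate block (adjusted p = 0.0629), with scaling by library size alone (adjusted p = 0.0625) and in the fit of only the 2 groups (adjusted p = 0.0996). Without DN replicate 4 the change was 0.81 ± 0.10, adjusted p = 1.75e-04. The second was lost when any 1 library other than DN+NaB replicate 1 was left out (adjusted p = 0.0503 to 0.0766).

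Slc38a7, which releases glutamine from lysosomes, measured 36.6, 40.7, 35.9 and 28.6 CPM in the NC libraries, 41.9, 54.2, 60.4 and 38.5 in those of DN and 52.5, 56.9, 46.0 and 53.2 in those of DN+NaB. DN+NaB was above NC without overlap at 0.56 ± 0.15 (adjusted p = 0.0225), lost without NC replicate 4 or DN+NaB replicate 2 or 4 (adjusted p = 0.0541 to 0.0687). In DN against NC it was 0.46 ± 0.15 (adjusted p = 0.0791), and 0.54 ± 0.14, adjusted p = 0.0234 without DN replicate 4, and DESeq2 called it (adjusted p = 0.0434). Slc36a4 did not pass in any comparison in edgeR (DN+NaB against NC -0.60 ± 0.21, adjusted p = 0.0680). It passed there in DESeq2 (adjusted p = 0.0375) and in the fit of only the 2 groups (adjusted p = 0.0163), and without DN replicate 4 it was called lower in DN against NC (-0.60 ± 0.18, adjusted p = 0.0454).

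Of the 14 carriers best known from neurons and glia, 7 were tested. edgeR called none in DN against NC or DN+NaB against DN, where DESeq2 called Slc6a4 higher (adjusted p = 0.0270) and Slc6a15 lower (adjusted p = 0.0246) in the first and Slc6a9 lower (adjusted p = 9.71e-05) in the second. In DN+NaB against NC 1 was higher (Slc6a4) and 2 lower (Slc6a9 and Slc6a15), against 6.62% and 8.94% of all genes. Slc6a15, a carrier of branched-chain amino acids and proline, had 5.28, 8.48, 8.80 and 11.2 CPM in the NC libraries, 5.30, 5.70, 2.50 and 5.28 in those of DN and 3.18, 4.35, 4.84 and 3.80 in those of DN+NaB. DN+NaB lay below NC without overlap, at -1.06 ± 0.27 (adjusted p = 0.0167), and the call was lost without NC replicate 4 (adjusted p = 0.0593). Slc6a4, the serotonin transporter, had 7.46, 7.40, 9.23 and 10.1 CPM in the NC libraries, 14.1, 13.9, 12.1 and 9.48 in those of DN and 13.5, 10.9, 14.7 and 10.4 in those of DN+NaB. DN+NaB was above NC without overlap by a narrow margin, at 0.53 ± 0.17 (adjusted p = 0.0496), a call lost without NC replicate 1, 2 or 3 or DN+NaB replicate 1, 2 or 3 (adjusted p = 0.0652 to 0.142). It was also lost with the replicate block (adjusted p = 0.0731), with scaling by library size alone (adjusted p = 0.115) and under both other filters (adjusted p = 0.0749 without one beyond 1 count, adjusted p = 0.0621 at 1 CPM in 4 libraries), so that it failed in 10 of 15 alternatives. In DN against NC it gave 0.54 ± 0.17 (adjusted p = 0.0715), and 0.63 ± 0.16, adjusted p = 0.0270 without DN replicate 4. The glutamate carrier Slc1a2 was lower in every DN+NaB library than in every other library (-0.42 ± 0.15, adjusted p = 0.0728 against NC) and was not called by edgeR, while DESeq2 called it (adjusted p = 0.0352).

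Of the 12 tested members that have no values above, none was called in any comparison by edgeR's fit of all 12 libraries with group as its only term. They were Slc1a3, Slc1a4, Slc38a4, Slc38a6, Slc38a9, Slc38a10, Slc38a11, Slc43a1, Slc43a3, Slc6a7, Slc6a17 and Slc7a6os. Slc7a6os is a gene opposite Slc7a6. The alternatives called 3 of these 12 in DN+NaB against NC. Slc38a4, a carrier of small neutral and basic amino acids, was 0.75 ± 0.26 (adjusted p = 0.0688) and was called higher by DESeq2 (adjusted p = 0.0318), with the replicate block (adjusted p = 0.0379), in the fit of only the 2 groups (adjusted p = 0.0467) and without DN+NaB replicate 1 (adjusted p = 0.0474). The glutamate carrier Slc1a3 was called lower in the fit of only the 2 groups (adjusted p = 0.0292), and Slc1a4, the exchanger ASCT1, without DN+NaB replicate 3 (adjusted p = 0.0369). Whether strand was used in the counting is not given in the sources used here, so reads of a carrier and its opposite-strand gene cannot be told apart. A further 20 members fell below the filter. Of these, 4 had 0 counts in all libraries (among them Slc6a11, Slc7a14 and Slc36a1os). For counting error alone, 0 counts in a single library leave an expected count of up to about 3, and 0 in all libraries a smaller one. The other 16 had at most 22 counts in a library. They include the dopamine carrier Slc6a3 and the glycine carrier Slc6a5. Slc6a5 had 7, 4, 3 and 2 counts in the NC libraries, 9, 8, 22 and 17 in those of DN and 1, 3, 2 and 3 in those of DN+NaB, so DN lay above both other groups. In a fit with no filter beyond 1 count it was not called (adjusted p = 0.174 in DN against NC and 0.283 in DN+NaB against DN), and no member under the filter was called there.

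Genes of the pathway outside these families were counted as well. Of 18 tested partners and other amino acid carriers, 2 were called higher (Mfsd12 and Slc16a10) and 1 lower (Slc15a2) in DN against NC, none in DN+NaB against DN, and 3 higher (Slc16a10, Mfsd12 and Slc25a15) in DN+NaB against NC, where Slc25a13 was among those called lower. The count of higher calls in DN against NC was 5 without DN replicate 4. Slc16a10, the basolateral uniporter TAT1 of aromatic amino acids, changed by 0.48 ± 0.11 (adjusted p = 0.0130) in DN against NC and 0.76 ± 0.11 (adjusted p = 3.49e-04) in DN+NaB against NC. Mfsd12, which is needed to bring cysteine into lysosomes, changed by 0.98 ± 0.19 (adjusted p = 0.00565) and 0.93 ± 0.19 (adjusted p = 0.00490). The peptide carrier Slc15a2 changed by -0.61 ± 0.14 (adjusted p = 0.0122) in DN against NC. Collectrin (Tmem27), which brings Slc6a19 to the cell surface in the kidney, was -0.019 ± 0.26 (adjusted p = 0.971) in DN+NaB against NC. Among 9 peptidases, most of them brush border enzymes that release amino acids from peptides, 3 were called lower in DN against NC, none in DN+NaB against DN and 3 lower (Cndp2, Mme and Lap3) in DN+NaB against NC. With DN replicate 4 left out, 3 were lower and 1 (Dpep1) higher in DN against NC. The cytosolic dipeptidase Cndp2 changed by -0.87 ± 0.17 (adjusted p = 0.00450) and -1.21 ± 0.17 (adjusted p = 2.80e-04) in the comparisons with NC, and neprilysin (Mme) by -0.84 ± 0.23 (adjusted p = 0.0357) and -0.96 ± 0.23 (adjusted p = 0.0115).

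Between DN+NaB and DN, 6 members had groups that did not overlap, 13.0% of those tested, against 4.56% of all genes. Slc7a8 was higher in DN+NaB, and Slc6a9, Slc38a1, Slc6a12, Slc7a5 and Slc1a2 were lower, Slc38a1 by a narrow margin. None of these members passed the adjusted threshold. In DN against NC the count was 7 (15.2%, against 13.3% of all genes), and in DN+NaB against NC it was 27 (58.7%, against 27.9%).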

How the data were processed

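RNA-seq of renal cortex gave 12 libraries, 4 per group (NC, DN and DN+NaB), with groups taken from the sample titles and labels. The authors deposited 1 table of whole-number read counts per gene symbol, not normalized. The submitters' processing notes name HISAT2 2.0.4. How the reads were counted, on which strand, and with which genome build and annotation is not given in the sources used here, so copies that share reads are uncertain.

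The filter was filterByExpr by group (17530 genes left) and the scaling TMM. A quasi-likelihood model with a term for group and robust estimation was fitted to all 12 libraries at once (edgeR 4.0.16, limma 3.58.1, R 4.3.3), two-sided, with Benjamini-Hochberg adjustment over all genes and a threshold of 0.05. The code was tested on simulated data. Ratios used (count + 1) / (count + 1) within a library and exact permutation tests (scipy 1.17.1). Each pair of libraries differed by more than sampling noise, with a chi-square per degree of freedom of at least 25.4. Depth ran from 58394975 to 70674015 counts, and the median standard error of a member's log2 fold change was 0.17. Lengths were merged exons of GENCODE M21, matched by symbol for all 66 members, and promoter sequences came from RefSeq (GRCm38.p6).

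The members and the lists were chosen with earlier results of these data known, so a list's counts are not independent evidence. Values in every library are given for members called in any comparison and for all brush border and basolateral members, and up to 3 others per list were named by smallest unadjusted p. Slc38a2, Slc7a11, Slc6a6, Slc7a5, Slc1a2, Slc38a4, Slc1a3, Slc1a4 and Slc6a5 were named after their values were seen. The alternatives were other scaling, filters, DESeq2 1.42.0, fits of 2 groups, a block by replicate number, and leaving out each library. Single results of some listed genes are not reported here.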

Additional observations from a re-analysis of the deposited data

Results flagged for a closer look

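In groups of 4 libraries, a value was marked when its gap to the nearest other library exceeded 0.829 of the whole range of the group. Of 102 groups of named members examined, 8 held such a value, where about 1 in 20 groups would by chance (5.1 of 102). Among the members with such a value, Slc38a2, Slc7a11, Slc6a6 and Slc1a2 were named after their values were seen. The 8 therefore cannot be compared with the number by chance. DN replicate 4 held 2 of them: Slc38a2, at 242 CPM against 43.5 to 72.0 in the other DN libraries, and Slc7a11, at 3.57 CPM against 0.0313 to 0.194. Slc6a15 was low in DN replicate 3, at 2.50 CPM against 5.28 to 5.70. In DN+NaB, Slc6a19 was high in replicate 3 (903 CPM against 796 to 800.1) and Slc7a8 in replicate 2 (827 CPM against 692 to 711). In NC, Slc6a13 was high in replicate 3 (191 CPM against 172 to 174), Slc6a6 in replicate 1 (1156 CPM against 1113 to 1118) and Slc1a2 in replicate 4 (13.8 CPM against 9.94 to 10.5).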

How the results depend on the processing

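Each comparison was repeated under 15 alternatives, 8 of which left out 1 library. Of the called members, 4 of 7 in DN against NC (Slc3a2, Slc7a7, Slc7a13 and Slc38a1) and 10 of 18 in DN+NaB against NC were called in all of them, and no called member changed sign in any. Against 5 members called higher in DN against NC, DESeq2 called 9 and the fit with a replicate block 3. Against 0 in DN+NaB against DN, DESeq2 called 1 higher and 2 lower. RLE factors called 1 lower (Slc6a9), and no filter beyond 1 count 1 lower (Slc6a9). Leaving out 1 library gave 2 to 9 members higher in DN against NC, 0 to 1 lower in DN+NaB against DN, and 7 to 11 higher in DN+NaB against NC, where all genes called ran from 409 to 921, 0 to 37 and 790 to 957. Over all genes, DESeq2 called 1031 higher in DN against NC (669 with edgeR) and 84 higher and 173 lower in DN+NaB against DN (2 and 2), and the fit of only the 2 groups called 1783 higher in DN+NaB against NC (1161). The counts and medians per list without DN replicate 4 were added after the data were seen. The cause of these changes was not tested.

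Some differences of members that were not called changed sign, and not all of them were near 0. Slc7a11 in DN+NaB against DN was -2.90 ± 1.29, and Slc38a2 in DN against NC was 0.27 ± 0.41. Both changed sign only when DN replicate 4 was left out. With scaling by library size alone, DN against NC was -0.0458 for Slc7a6, -0.0842 for Slc6a13, -0.0423 for Slc7a1 and -0.0177 for Slc6a6, and DN+NaB against NC was -0.0563 for Slc6a20b. Where 1 CPM was required in 4 libraries, DN against NC was -0.0122 for Slc6a13. With the replicate block, DN against NC was -0.0079 for Slc7a6 and -0.0016 for Slc7a1, and DN+NaB against DN was 0.0029 for Slc6a19. Over the leave-outs, DN against NC ran from -0.267 to 0.0012 for Slc6a9, -0.0724 to 0.0066 for Slc3a1, -0.108 to 0.126 for Slc6a20b, -0.309 to 0.139 for Slc7a6, -0.0929 to 0.0693 for Slc6a13, -0.256 to 0.168 for Slc7a1, -0.523 to 0.534 for Slc38a2 and -0.151 to 0.061 for Slc1a2. DN+NaB against DN ran from -0.177 to 0.175 for Slc36a1, -0.140 to 0.166 for Slc6a19, -0.112 to 0.0719 for Slc6a4, -0.502 to 0.0784 for Slc7a12, -0.0192 to 0.300 for Slc7a9, -0.0858 to 0.167 for Slc6a20b, -0.306 to 0.0996 for Slc7a1, -0.0511 to 0.163 for Slc7a4 and -3.60 to 0.376 for Slc7a11. DN+NaB against NC ran from -0.017 to 0.111 for Slc6a20b, -0.256 to 0.333 for Slc6a12, -0.229 to 1.04 for Slc7a11 and -0.0988 to 0.0352 for Slc6a6.

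The replicate numbers in the titles were not shown to pair libraries: deviations of same-numbered libraries correlated from -0.0856 to 0.2 in DN against NC, -0.245 to 0.269 in DN+NaB against DN and -0.0719 to 0.224 in DN+NaB against NC, and not every library correlated best with its own number. In DN+NaB against NC the fit with the replicate block called 12 members higher, with Slc38a4 among them and Slc6a4 not, and 6 lower. Members under the filter, with at most 22 counts in a library, were tested only in the fit with no filter beyond 1 count.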
